A study of Homo sapiens with 24 samples.

Results

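The genes described here are 42 ribosome biogenesis factors, proteins that make, modify, fold and cut the ribosomal RNA and put the ribosomal subunits together. They were taken by name, as a list of nucleolar and ribosome assembly genes, and each name matched 1 Ensembl identifier, so that all 42 were found among the 57992 genes counted. By role, 6 belong to the RNA polymerase I machinery, 5 to the box C/D snoRNP and its nucleolar chaperones, 4 to the box H/ACA snoRNP, 10 to the small subunit processome, 7 to late 40S assembly and 10 to 60S assembly. The rule for membership uses names and no measured value, although the list was drawn up with earlier results of these data known. All 42 passed the filter on low counts in RNA, in footprints and in the model of both.

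The samples were K562 cells, an established line from a human chronic myelogenous leukaemia, with an inducible CRISPR interference system, in which a guide RNA brings a repressor to a promoter. The guide sgDDX3 is directed at DDX3X, an RNA helicase that helps translation to start, and sgGal4 served as control. Cells with sgDDX3 and cells with sgGal4 were sampled at day 0, day 3 and day 14, and ribosome footprints and cytosolic RNA were sequenced from each, with 2 libraries for each of the 12 groups and 24 libraries in all. Doxycycline at 50 ng/ml was used to induce the knockdown and is listed for all groups, day 0 included, and the labels do not say whether the day 0 cells had received it. They do not say either whether a guide's cells were 1 clone, or whether the replicates were separate cultures, so a p-value reflects no more than the spread of these libraries, and that spread may be technical. Footprints are the pieces of mRNA that ribosomes shield from RNase I. They came from ribosomes held by cycloheximide and collected on size-exclusion columns, whereas RNA came from the Triton lysate after depletion of ribosomal RNA. RNA left in the nucleus is therefore not part of these values.

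Ribosomes are built mainly in the nucleolus, where RNA polymerase I makes a long precursor that holds most of the ribosomal RNAs. Small nucleolar ribonucleoproteins modify it, the box C/D kind by ribose methylation and the box H/ACA kind by turning uridine into pseudouridine, while the small subunit processome folds and cuts the part that becomes the 40S subunit. Separate factors mature the 60S subunit, and the last steps of 40S assembly take place in the cytoplasm. Many of these genes are known targets of MYC, a transcription factor that binds the sequence CACGTG, the E-box, and proliferating leukaemia cells use the pathway heavily.

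In units of 1e+06 counts, the depth of an RNA library was 10.3 to 43.3, with a median of 14.5, and that of a footprint library 6.22 to 15.2, with a median of 9.48. Levels are given as CPM, the counts of a gene per 1e+06 counts of its library, scaled within an assay by the trimmed mean method of edgeR, and a count of 0 would allow up to 0.292 CPM in RNA and 0.482 CPM in footprints in the shallowest library. Of 10 erythroid markers, the lineage K562 resembles, 9 reached 10 CPM, and their sum was 1393 to 1830 CPM in RNA over all libraries. Between guides, 0 of the 9 tested rose and 4 fell in RNA at day 3, where 14.1% of all genes passed, and 2 rose and 2 fell at day 14, where 14.6% passed. Without 1 library, 2 to 4 fell at day 3, and at day 14 1 or 2 rose and 1 or 2 fell, and their part in the results below was not tested. No lymphoid marker of 5 reached 10 CPM, their sum being 6.25 to 9.32 CPM in RNA. Of 5 monocyte and granulocyte markers 0 reached 10 CPM in RNA (sum 3.54 to 5.83 CPM) and 1 in footprints (sum 8.43 to 14.4 CPM). Of 4 epithelial markers 1 reached 10 CPM (sum 23.1 to 32.4 CPM in RNA), and the 1 tested, EPCAM, had a log2 difference of -0.30 in RNA at day 14 that passed in edgeR and was lost on leaving out any 1 of the 4 libraries (-0.35 to -0.25). The targeted gene DDX3X had 38.9 and 33.7 CPM of RNA in sgDDX3 cells at day 3, against 185 and 174 CPM in sgGal4 cells. At day 14 it had 134 and 101 CPM in sgDDX3 cells and 201 and 187 CPM in sgGal4 cells, and at day 0 175 and 185 CPM in sgDDX3 cells and 214 and 203 CPM in sgGal4 cells. Its log2 difference in RNA (sgDDX3 over sgGal4) was -2.29 at day 3 and -0.72 at day 14, so that the knockdown measured at day 14 was the shallower one. In bulk samples, fewer cells that express a gene and less RNA per cell cannot be told apart, which holds for DDX3X at day 14 as for every gene below.

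The replicates of sgDDX3 differed across most of the 42 genes. At day 3, replicate 2 was above replicate 1 in 37 of 42 genes in RNA, with a median log2 difference of 0.14, and in 37 of 42 in footprints, with a median of 0.25. At day 14 the difference ran the other way: replicate 2 was above replicate 1 in only 8 of 42 genes in RNA (median -0.20) and in 4 of 42 in footprints (median -0.17). In the other 8 groups the median difference between replicates lay between -0.04 and 0.07. Without regard to sign, sgGal4 footprints at day 14 differed by a median of 0.20 (largest 0.61), against 0.17 (largest 0.43) in sgDDX3 footprints at day 14. The differences in those sgGal4 footprints ran both ways, with replicate 2 above replicate 1 in 25 of 42 genes. The sgDDX3 libraries of days 3 and 14 thus differed in 1 direction over most of the ribosome biogenesis genes. The same counts were not made over all genes, so the shift cannot be called particular to this pathway. Many of the counts, medians and calls that rest on these libraries, but not all, are given with and without 1 of them.

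**Figure D1:**
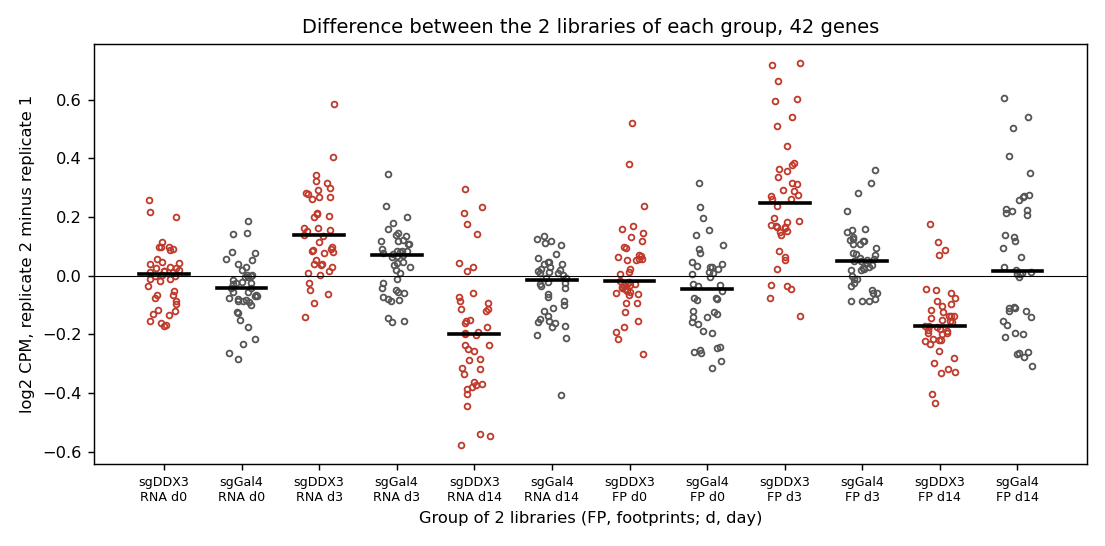
The log2 difference between replicate 2 and replicate 1 is plotted for each of the 42 genes (open circles) in each of the 12 groups, with sgDDX3 in red and sgGal4 in grey and the median as a black bar. The sgDDX3 groups lie above 0 at day 3 (medians 0.14 and 0.25) and below 0 at day 14 (medians -0.20 and -0.17), in RNA and in footprints.

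The E-box was looked for in the RefSeq promoter windows of GRCh38.p14, which run from 250 bases before to 50 bases after a gene's start. CACGTG reads the same on both strands, and a gene was counted when any of its windows held it. Windows were found for 37 of the 42 genes, and 15 of them (40.5%) held the motif, against 8.77% of the 27305 genes with a window and 13.4% of 7505 other protein-coding genes with a mean of at least 10 CPM in RNA. The genes with no window were TCOF1, RRP12, NOP58, NOLC1 and BOP1. Among the 9 genes that passed a test between the guides below, 5 held the motif, against 10 of the 28 other genes with a window, and among the genes without it were UBTF, NOB1, NPM1 and NOC2L. A match is a description of the letters and not evidence of binding, and no match says only that these letters are not in this window. The stretches of 30 bases around the motif of the 5 genes are shown because these genes moved in both directions, with the motif in capitals, 5′ to 3′ on the strand of the gene. NOP2 and UTP20 were higher in sgDDX3 cells at day 14, NOP10 and FBL were lower at day 14, and UTP4 was lower at day 3. NOP10 holds the motif at 2 places, and the other, 170 bases before the start, is not shown.
UTP20, chr12:101280083-101280112, plus strand, 10 bases before the start: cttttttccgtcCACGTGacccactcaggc
NOP2, chr12:6568242-6568271, minus strand, 36 bases after the start: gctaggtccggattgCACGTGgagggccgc
NOP10, chr15:34343130-34343159, minus strand, 11 bases before the start: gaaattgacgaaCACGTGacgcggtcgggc
UTP4, chr16:69132621-69132650, plus strand, 16 bases before the start: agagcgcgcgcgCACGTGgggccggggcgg
FBL, chr19:39846356-39846385, minus strand, 7 bases after the start: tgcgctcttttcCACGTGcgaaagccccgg

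The first question was whether the RNA of these genes differed between sgDDX3 and sgGal4 cells at each day. It did so in few of them, as it did in few of all genes tested. Differences were tested with the quasi-likelihood test of edgeR over all genes of an assay, and a gene passed at a Benjamini-Hochberg adjusted p under 0.05. At day 3, 3 of 42 genes passed (7.14%), 1 higher and 2 lower in sgDDX3 cells, while 14.1% of all 18287 genes tested passed (7.68% higher, 6.39% lower). At day 14, 7 of 42 passed (16.7%), 3 higher and 4 lower, against 14.6% of all genes (8.44% higher, 6.18% lower). The share of called genes was thus below that of all genes at day 3, where it rests on 3 genes, and near it at day 14. In edgeR, an unadjusted p under 0.05 was found in 26.2% of the 42 genes at day 3 (27.05% of all genes). At day 14 it was found in 21.4% of the 42 genes (27.5% of all genes). The median log2 difference of the 42 genes was -0.06 at day 3 (all genes -0.01) and 0.02 at day 14 (all genes -0.01). At day 0 no gene of the 42 passed in edgeR, none had an unadjusted p under 0.05 and none passed in DESeq2, where 0.00547% of all genes passed in edgeR. Even so, the RNA of the 2 guides did not overlap in 19 of the 42 genes at day 0, against 23 at day 3 and 15 at day 14. In footprints these numbers were 18, 13 and 16. Non-overlap, given for single genes below, is thus common with 2 libraries a group and adds no support to a call. Its share over all genes was not counted.

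Both medians depended on single sgDDX3 libraries. At day 3 the median was 0.03 without replicate 1 of sgDDX3 and -0.15 without replicate 2. At day 14 it was -0.11 without replicate 1 and 0.09 without replicate 2. The called genes moved with them: at day 3, 2 genes were higher and 0 lower without replicate 1, and 1 was higher and 3 lower without replicate 2, whereas 1 gene passed on leaving out replicate 1 of sgGal4, and also 1 on leaving out its replicate 2. At day 14, 2 were higher and 7 lower without sgDDX3 replicate 1, 7 were higher and 3 lower without sgDDX3 replicate 2, and 4 passed without sgGal4 replicate 1. The sign of both medians thus turned with the sgDDX3 library left out. Without either sgGal4 replicate, fewer of all genes passed as well, at both days.

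**Figure D2:**
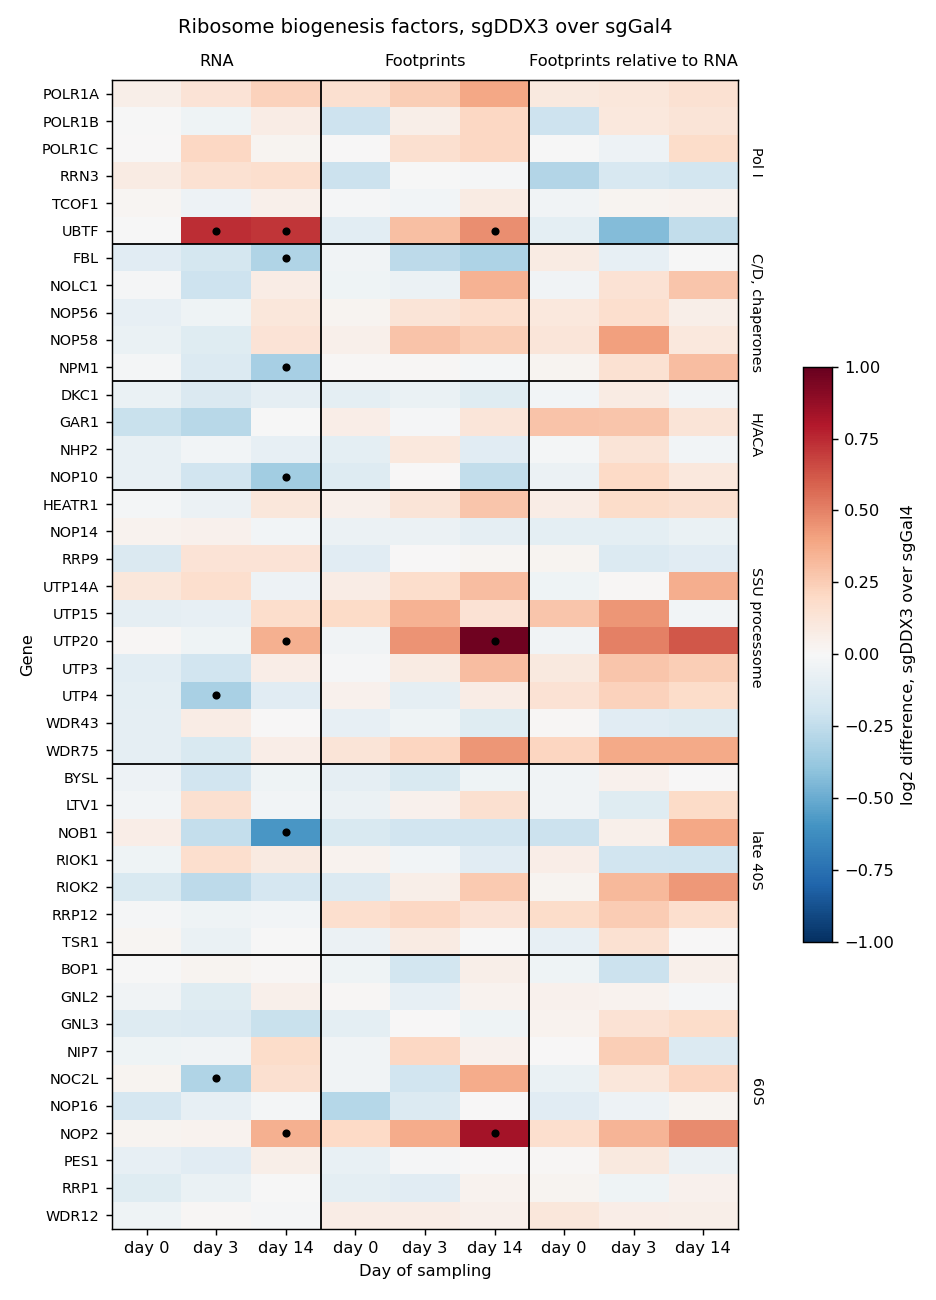
The log2 difference (sgDDX3 over sgGal4, colour scale from -1 to 1) is shown for each of the 42 genes, grouped by role, in RNA, in footprints and in footprints relative to RNA at days 0, 3 and 14. Black dots mark an adjusted p under 0.05 in edgeR: 3 genes in RNA at day 3, 7 in RNA at day 14, 3 in footprints at day 14 and none in the ratio.

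Among the genes of RNA polymerase I, UBTF, the factor that binds the ribosomal DNA and keeps it open for transcription, was the gene that rose. Its RNA was 132 and 151 CPM in sgDDX3 cells at day 3, against 84.2 and 84.6 CPM in sgGal4 cells, and 160 and 148 CPM in sgDDX3 cells at day 14, against 89.4 and 97.5 CPM in sgGal4 cells. The groups did not overlap at either day. At day 0 they did, with 80.0 and 73.8 CPM in sgDDX3 cells and 78.4 and 76.2 CPM in sgGal4 cells. The log2 difference was 0.74 ± 0.08 (SE; adjusted p = 2.55e-06, edgeR) at day 3 and 0.71 ± 0.08 (adjusted p = 5.54e-06) at day 14, and it passed in every alternative run, with values from 0.64 to 0.84 at day 3 and from 0.66 to 0.78 at day 14. UBTF footprints were 113 and 119 CPM in sgDDX3 cells at day 14, against 83.8 and 84.2 CPM in sgGal4 cells, a log2 difference of 0.47 ± 0.10 (adjusted p = 0.0256, edgeR). That call was lost on leaving out any 1 of the 4 libraries (sgDDX3 replicate 1 or 2, sgGal4 replicate 1 or 2), the value then being 0.43 to 0.49, and when the 2 groups were fitted alone (0.47). At day 3 the footprints were 86.6 and 95.9 CPM in sgDDX3 cells and 75.6 and 72.5 CPM in sgGal4 cells, a log2 difference of 0.30 that did not pass (adjusted p = 0.136, edgeR).

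At day 3 the log2 difference of UBTF was smaller in footprints than in RNA. The difference of footprints relative to RNA, the translational efficiency, was -0.44 ± 0.13 at day 3 (adjusted p = 0.0563, edgeR), just outside the threshold, and -0.25 ± 0.13 at day 14 (adjusted p = 0.473). The day 3 value passed with DESeq2, with the size factors of DESeq2, with no filter on low counts and without replicate 1 of sgDDX3 RNA (-0.54), its adjusted p in those 4 settings lying between 0.0274 and 0.0460, and between 0.0274 and 0.224 over all alternatives. The other 5 genes of this role did not pass in RNA or footprints. POLR1A, the largest subunit of the polymerase, had 180 and 162 CPM of RNA in sgDDX3 cells at day 14 and 145 and 146 CPM in sgGal4 cells, a log2 difference of 0.23 (adjusted p = 0.0718, edgeR), and 0.38 in footprints (adjusted p = 0.0556). Without sgDDX3 replicate 1 these were 0.16 and 0.30, and without sgDDX3 replicate 2 they were 0.30, which passed, and 0.45. All 6 values of the role were above 0 in RNA at day 14, with a median of 0.12, against 4 without sgDDX3 replicate 1 (median 0.11) and 5 without its replicate 2 (median 0.24). RRN3, which brings the polymerase to the promoter, has pseudogenes whose counts came to 60.3% of its own in RNA, so its values are uncertain.

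The box C/D proteins and nucleolar chaperones gave 2 genes that fell in RNA at day 14. NPM1, nucleophosmin, an abundant nucleolar chaperone, had 1103 and 1039 CPM in sgDDX3 cells and 1361 and 1334 CPM in sgGal4 cells, and the groups did not overlap. The log2 difference was -0.33 ± 0.06 (adjusted p = 0.000721, edgeR), and it passed in every alternative run. Its footprints were 570 and 469 CPM in sgDDX3 cells and 510 and 544 CPM in sgGal4 cells, which overlapped, with a difference of -0.02. The counts of 49 NPM1 pseudogenes came to 14.7% of its own counts in RNA and 151% in footprints, so that its values, the footprints above all, are uncertain. FBL, fibrillarin, the methyltransferase of the box C/D particle, had 251 and 220 CPM of RNA in sgDDX3 cells at day 14 and 300 and 280 CPM in sgGal4 cells. Its log2 difference was -0.30 ± 0.08 (adjusted p = 0.0104, edgeR), a call lost without sgDDX3 replicate 2 (-0.22), without sgGal4 replicate 1 (-0.24) and when the 2 groups were fitted alone (-0.30). FBL footprints were 303 and 276 CPM in sgDDX3 cells and 397 and 320 CPM in sgGal4 cells, with a difference of -0.31 that did not pass (adjusted p = 0.136, edgeR). It passed without sgGal4 replicate 2 (-0.47) and with no filter on low counts (-0.34), and was -0.14 without sgGal4 replicate 1. NOP56 and NOP58, the core proteins that sit with fibrillarin in the particle, did not pass at any day, with 0.11 and 0.14 in RNA at day 14.

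The genes of the box H/ACA particle had 1 call, NOP10, a small core protein that holds the pseudouridine synthase DKC1. It had 40.1 and 40.9 CPM of RNA in sgDDX3 cells at day 14, against 50.2 and 52.8 CPM in sgGal4 cells, groups that did not overlap. The log2 difference was -0.35 ± 0.09 (adjusted p = 0.00743, edgeR), lost without sgGal4 replicate 2 (-0.31). Its footprints were 102 and 108 CPM in sgDDX3 cells and 130 and 118 CPM in sgGal4 cells, with a difference of -0.24 that did not pass (adjusted p = 0.164, edgeR). The role had no value above 0 in RNA on days 0, 3 and 14, with a median of -0.08 at day 0, -0.17 at day 3 and -0.09 at day 14. Leaving out sgDDX3 replicate 1 at day 14 gave a median of -0.25, and leaving out its replicate 2 gave 0.04, with 3 of 4 values above 0. DKC1, GAR1 and NHP2, the other parts of the particle, did not pass. Pseudogene counts of NHP2 came to 23.6% of its own in footprints.

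In the small subunit processome, UTP20, a very long scaffold protein, was the gene that rose at day 14, in both assays. It had 47.3 and 47.8 CPM of RNA in sgDDX3 cells, against 35.1 and 38.6 CPM in sgGal4 cells. Its footprints were 52.0 and 39.3 CPM in sgDDX3 cells, against 21.7 and 25.0 CPM in sgGal4 cells. Neither pair of groups overlapped. The log2 difference was 0.36 ± 0.09 in RNA (adjusted p = 0.00855, edgeR) and 0.97 ± 0.19 in footprints (adjusted p = 0.0125, edgeR), the highest of the 42 genes. The RNA call was lost without sgGal4 replicate 1 (0.31), and the footprint call without sgDDX3 replicate 1 (0.74) or sgGal4 replicate 1 (0.88). The difference relative to RNA was 0.62 ± 0.20 (adjusted p = 0.122, edgeR), which passed with no filter on low counts (0.62) and without replicate 2 of the sgDDX3 footprints (0.79), and was 0.39 without their replicate 1 (adjusted p = 0.577, edgeR, over a range of 0.0341 to 0.577 in all its alternatives). At day 3, UTP20 footprints were 18.3 and 26.1 CPM in sgDDX3 cells and 16.4 and 16.3 CPM in sgGal4 cells, with a difference of 0.45 that did not pass (adjusted p = 0.261, edgeR) and was 0.67 without sgDDX3 replicate 1 and 0.15 without its replicate 2. Its RNA overlapped between guides.

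UTP4, a processome protein that binds the early precursor, fell in RNA at day 3. It had 57.1 and 68.8 CPM in sgDDX3 cells, against 75.8 and 80.3 CPM in sgGal4 cells, which did not overlap, and a log2 difference of -0.32 ± 0.10 (adjusted p = 0.0333, edgeR). The call was lost without sgDDX3 replicate 1 (-0.18), without sgGal4 replicate 1 (-0.37) and without sgGal4 replicate 2 (-0.28), and the 2 sgDDX3 replicates were the ones that stood apart over most of the 42 genes. At day 14 the UTP4 groups overlapped. The other 8 genes of the role, among them HEATR1, WDR43, WDR75 and NOP14, did not pass in any test between guides, although 8 of 10 values were above 0 in footprints at day 14, with a median of 0.21. Without sgDDX3 replicate 1, 5 of 10 were above 0 and the median was 0.07, and without its replicate 2 the median was 0.33. WDR75 had the largest of those that did not pass, with 80.4 and 72.1 CPM of footprints in sgDDX3 cells and 49.5 and 63.0 CPM in sgGal4 cells, a difference of 0.44 (adjusted p = 0.127, edgeR) that ran from 0.29 to 0.61 on leaving out 1 library, the low value being without sgGal4 replicate 1, and passed with no filter on low counts.

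Among the late 40S factors, NOB1 fell in RNA at day 14. NOB1 is the endonuclease that makes the final cut of the small subunit RNA in the cytoplasm. It had 58.8 and 72.3 CPM in sgDDX3 cells, against 97.1 and 99.2 CPM in sgGal4 cells, with no overlap, and a log2 difference of -0.58 ± 0.09 (adjusted p = 0.000135, edgeR), the lowest of the 42 genes. It passed in every alternative run, with values from -0.75 to -0.44. Its footprints were 59.3 and 67.1 CPM in sgDDX3 cells and 74.7 and 69.5 CPM in sgGal4 cells, with a difference of -0.19 (adjusted p = 0.295, edgeR), so that footprints relative to RNA had a difference of 0.39 ± 0.13 (adjusted p = 0.158). That difference relative to RNA passed without replicate 2 of sgDDX3 RNA (0.56) and was 0.25 without its replicate 1. At day 3 NOB1 RNA was 88.3 and 80.0 CPM in sgDDX3 cells and 103 and 96.6 CPM in sgGal4 cells, a difference of -0.24 that did not pass (adjusted p = 0.0686, edgeR). RIOK1 and RIOK2, kinases that act on the maturing 40S subunit, BYSL, LTV1, TSR1 and RRP12 did not pass.

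In 60S assembly, NOP2, which methylates a cytosine of the large subunit RNA, rose at day 14. It had 50.2 and 40.3 CPM of RNA in sgDDX3 cells and 36.0 and 35.0 CPM in sgGal4 cells, and 51.9 and 48.9 CPM of footprints in sgDDX3 cells and 25.9 and 31.0 CPM in sgGal4 cells. Neither pair of groups overlapped. The log2 difference was 0.36 ± 0.11 in RNA (adjusted p = 0.0310, edgeR) and 0.83 ± 0.17 in footprints (adjusted p = 0.0204, edgeR). The RNA call was lost without sgDDX3 replicate 1 (0.19), without sgGal4 replicate 1 (0.38), without sgGal4 replicate 2 (0.33) and with the 2 groups fitted alone (0.35), and the footprint call without sgDDX3 replicate 1 (0.78), without sgDDX3 replicate 2 (0.87) and without sgGal4 replicate 1 (0.71). NOC2L, a partner of other 60S factors, had 64.0 and 79.7 CPM of RNA in sgDDX3 cells at day 3, against 83.9 and 92.3 CPM in sgGal4 cells. Its log2 difference was -0.30 ± 0.10 (adjusted p = 0.0377, edgeR), a call lost without sgDDX3 replicate 1 (-0.14), without sgGal4 replicate 1 (-0.38) and without sgGal4 replicate 2 (-0.23). At day 14 it was 0.16, and the change between the days had an adjusted p of 0.262 in edgeR. Pseudogene counts of NOC2L came to 20.7% of its own in footprints. The PeBoW proteins PES1, BOP1 and WDR12, which act together on the large subunit precursor, did not pass, with differences of 0.06, 0.01 and -0.01 in RNA at day 14.

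**Figure D3:**
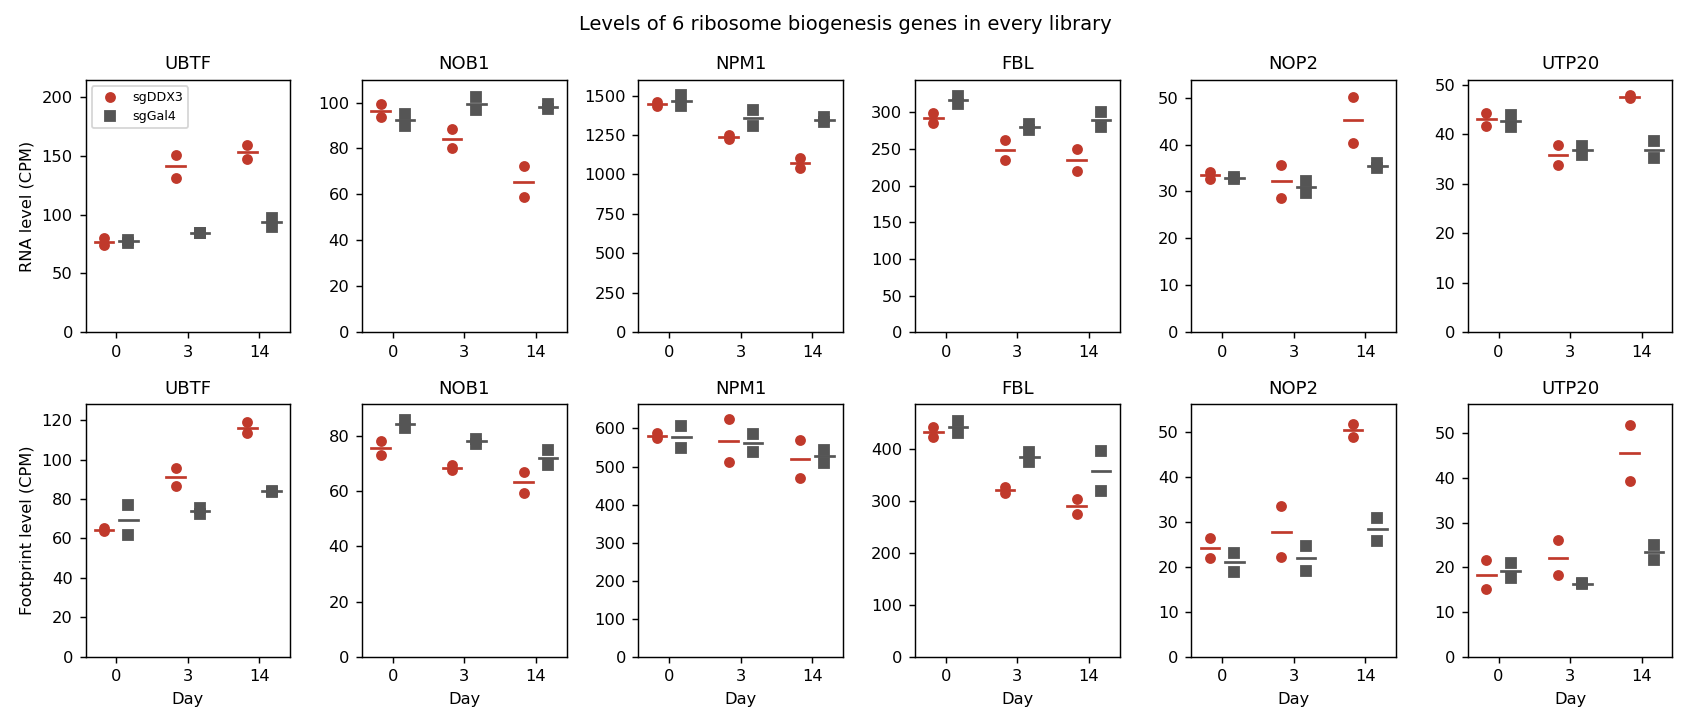
CPM in every library is plotted by day for UBTF, NOB1, NPM1, FBL, NOP2 and UTP20, with RNA in the upper row and footprints in the lower row, sgDDX3 as red circles left of sgGal4 as grey squares, and a line at the mean of 2 libraries. UBTF RNA lies apart at days 3 and 14 (132 to 160 CPM in sgDDX3 cells, 84.2 to 97.5 CPM in sgGal4 cells), and the other 5 genes lie apart in RNA at day 14.

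The second question was whether ribosome occupancy differed. In footprints, 0 of 42 genes passed at day 3 in edgeR, with 4 at an unadjusted p under 0.05 and 0 in DESeq2, where 3.81% of 19780 genes passed. At day 14, 3 passed, UTP20, NOP2 and UBTF, all higher in sgDDX3 cells, which is 7.14% of the 42 genes against 3.4% of all genes (2.11% higher, 1.29% lower). Fewer of the 42 genes, and also fewer of all genes, passed without sgDDX3 replicate 1, without its replicate 2 or without sgGal4 replicate 1. Of the 42 values, 29 were above 0, with a median of 0.07 (all genes 0.00), which became -0.04 on leaving out sgDDX3 replicate 1 and 0.15 on leaving out its replicate 2. At day 3 the median was 0.01 (all genes 0.02), which became 0.12 without the first sgDDX3 replicate and -0.11 without the second. At day 0, 0 of 42 genes passed in edgeR, with 1 at an unadjusted p under 0.05 and 0 in DESeq2, where 0.0101% of all genes passed.

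Footprints relative to RNA gave no call among the 42 genes in edgeR. At day 3, 4 had an unadjusted p under 0.05 and DESeq2 called 1, UBTF, while 5.14% of 14853 genes passed, 0.707% higher and 4.44% lower. At day 14, 5 had an unadjusted p under 0.05 and DESeq2 called 0, while 1.75% of all genes passed. At day 0 none of the 42 had an unadjusted p under 0.05 and DESeq2 called 0, and 0.00673% of all genes passed in edgeR. The values were above 0 in 30 of 42 genes at day 3, with a median of 0.11 (all genes 0.05), and in 29 of 42 at day 14, with a median of 0.08 (all genes 0.02). Leaving out 1 sgDDX3 library moved the median between -0.04 and 0.23 at day 3 and between -0.02 and 0.22 at day 14. The lowest value was that of UBTF on both days, and the highest that of UTP20, 0.50 at day 3 and 0.62 at day 14. At day 3 the UTP20 value was 0.72 without replicate 1 of the sgDDX3 footprints and 0.20 without their replicate 2.

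**Figure D4:**
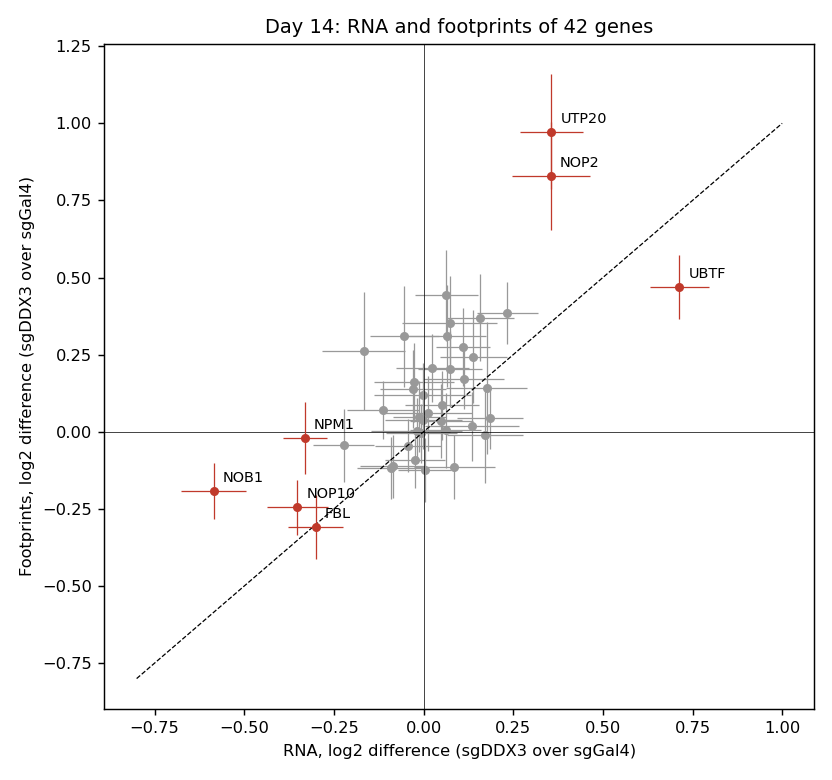
The log2 difference (sgDDX3 over sgGal4) at day 14 is plotted for the 42 genes, RNA on the horizontal and footprints on the vertical axis, with bars of 1 SE and a dashed line where both are equal. Genes in red passed in at least 1 of the 2 assays: UTP20 and NOP2 lie above the line, UBTF below it, and NOB1 has -0.58 in RNA and -0.19 in footprints.

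The day 14 and day 3 differences between guides were compared directly. None of the 42 genes changed between the days in edgeR, with 4 at an unadjusted p under 0.05 in RNA, 1 in footprints and 0 in the ratio, where 0.164%, 0.126% and 0% of all genes passed. DESeq2 called none of them either. The RNA values ran from -0.35 for NOB1 to 0.46 for NOC2L. UBTF, whose RNA was higher at both days while DDX3X was lowered more at day 3, had a change of -0.02 ± 0.12 between them. Without replicate 2 of sgDDX3 at day 14 or day 3, more of the 42 passed in RNA, as did more of all genes. In footprints the same was seen without replicate 2 of sgDDX3 at day 3.

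**Figure D5:**
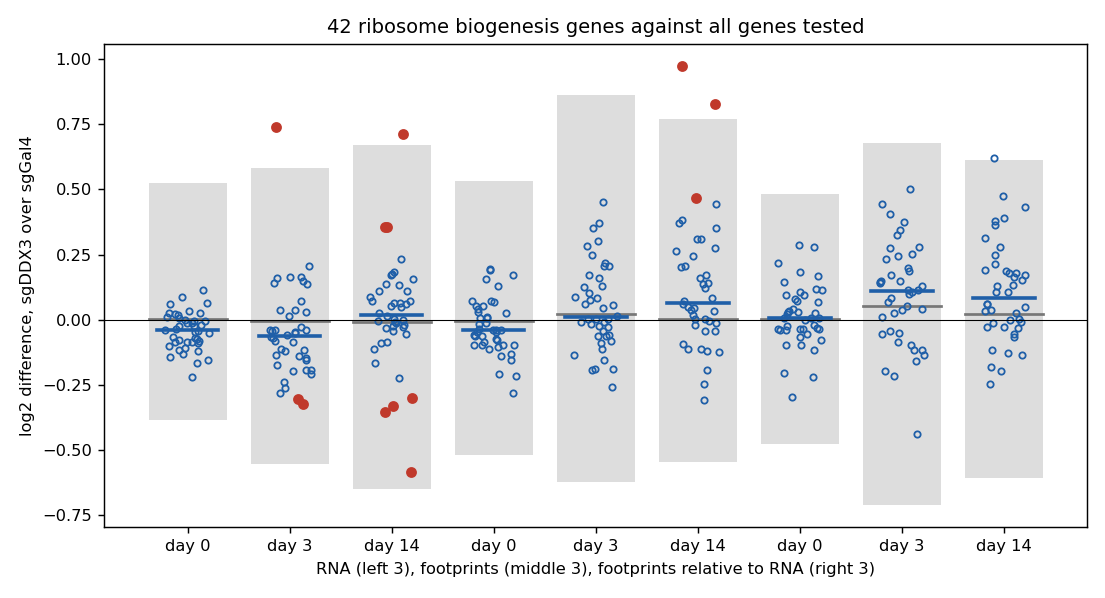
The log2 differences of the 42 genes (circles, red where the adjusted p was under 0.05) are plotted with their median (blue bar) over grey boxes that span the 5th to 95th percentile of all genes tested, with the grey line at the median of all genes, in RNA, footprints and footprints relative to RNA at days 0, 3 and 14. Most of the 42 genes lie inside the boxes, with medians between -0.06 and 0.11, and UBTF in RNA at days 3 and 14, UTP20 and NOP2 in footprints at day 14 and UTP20 relative to RNA at day 14 lie above them.

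Time in culture was read from the control cells alone. In RNA at day 3, 1 of 42 genes passed against day 0 in edgeR, and 5.68% of all genes passed. The gene was GNL3, nucleostemin, a nucleolar GTPase, which had 120 and 133 CPM in sgGal4 cells at day 3, against 180 and 179 CPM at day 0, a log2 difference of -0.50 ± 0.08 (adjusted p = 0.000915). The call was lost without sgGal4 replicate 1 at day 3 (-0.43), while at day 14 GNL3 had 126 and 128 CPM in sgGal4 cells and -0.49 ± 0.08 (adjusted p = 0.000381, edgeR), which passed in every alternative run. Its footprints were 155 and 169 CPM at day 3 and 151 and 177 CPM at day 14, against 221 and 233 CPM at day 0, with differences of -0.48 and -0.47 that did not pass (adjusted p = 0.0686 and 0.0556, edgeR). At day 14, 8 genes passed in RNA (19.0% of the 42, against 16.2% of all genes), 3 higher and 5 lower, with 7.7% of all genes higher and 8.55% lower. The higher ones were NOC2L, UTP14A and UBTF, with 0.31, 0.29 and 0.28, and the lower ones, besides GNL3, were UTP15, WDR43, HEATR1 and NIP7, with -0.38, -0.32, -0.28 and -0.28. Fewer of the 42 genes, and also fewer of all genes, passed on leaving out any 1 of the 4 libraries. UBTF was lost without each of them (0.21 to 0.33), so its call over time in sgGal4 cells rests on all 4. UTP14A has a near-identical copy, UTP14C, with which it may share reads.

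In footprints of sgGal4 cells, 0 of 42 genes passed at day 3 against day 0 in edgeR, with 6 at an unadjusted p under 0.05 and 2 in DESeq2, where 1.26% of all genes passed. At day 14, NOP16, a 60S factor, passed, and 2.47% of all genes did. It had 39.6 and 39.5 CPM at day 14, against 53.8 and 52.5 CPM at day 0, a log2 difference of -0.43 ± 0.10 (adjusted p = 0.0475, edgeR), lost without any 1 of the 4 libraries (-0.44 to -0.40) and in DESeq2. Footprints relative to RNA gave no call in sgGal4 cells in edgeR. At day 3 none of the 42 had an unadjusted p under 0.05 and 0% of all genes passed, and at day 14, 3 had one and 0.121% of all genes passed, and DESeq2 called 0 of the 42 at either day. Differences over time in RNA were below 0 for 33 of 42 genes at day 3 (median -0.11) and for 28 of 42 at day 14 (median -0.09), and in footprints for 36 (median -0.13) and 26 (median -0.09). These values and the differences between guides share the sgGal4 libraries.

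The ratio of footprint to RNA level, taken from the mean CPM of the 2 assays, described how the 42 genes vary among themselves. Its median over the 42 genes was 1.14, 1.16 and 1.14 in sgDDX3 cells at days 0, 3 and 14 and 1.10, 1.06 and 1.08 in sgGal4 cells. Over 9982 genes with at least 10 CPM of RNA the median lay between 0.724 and 0.739. The lowest ratio of the 42 genes was that of NPM1 in each group, 0.391 to 0.485, and the highest was that of GAR1 in sgDDX3 cells, 3.34 to 3.86, and of NHP2 in sgGal4 cells, 3.07 to 3.39. Both belong to the box H/ACA particle, whose other parts had 2.39 to 2.78 (NOP10) and 0.9955 to 1.14 (DKC1) over the groups. Pseudogene counts of NHP2 came to 23.6% of its own in footprints. NPM1 is the gene whose footprint counts are most shared with pseudogenes, and the part of that sharing in its ratio was not tested.

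Other genes of the pathway were also called in both directions. Of 115 further factors listed (pre-40S and processome, pre-60S, RNA polymerase I and snoRNP assembly), 114 were tested in RNA, where 1 rose and 13 fell at day 3 (12.3% called, against 14.1% of all genes, median -0.12) and 7 rose and 11 fell at day 14 (15.8%, against 14.6% of all genes, median -0.03). At day 3, 4 rose and 6 fell without sgDDX3 replicate 1 (median -0.04), 0 and 11 without its replicate 2, 0 and 7 without sgGal4 replicate 1, and 0 and 3 without its replicate 2. At day 14, 3 rose and 12 fell without sgDDX3 replicate 1 (median -0.09), 19 and 10 without its replicate 2 (median 0.03), 3 and 3 without sgGal4 replicate 1, and 2 and 3 without its replicate 2. At day 3 the smallest adjusted p in RNA were those of BRIX1 (-0.38) and RUVBL2 (-0.39), a 60S factor and a subunit of the chaperone that assembles box C/D particles. At day 14, NLE1, a 60S factor, had 47.4 and 46.9 CPM of RNA in sgDDX3 cells and 65.9 and 66.5 CPM in sgGal4 cells (-0.49 ± 0.08, adjusted p = 0.000228, edgeR). In footprints, of 113 tested, 0 rose and 2 fell at day 3 (3.81% of all genes passed), and 3 rose and 1 fell at day 14 (3.4% of all genes passed). At day 3, 3 rose and 1 fell without sgDDX3 replicate 1 and 0 passed without sgGal4 replicate 1. At day 14, fewer of these genes passed without sgDDX3 replicate 1 or sgGal4 replicate 1, and fewer of all genes did so as well. NCL, nucleolin, had 1149 and 981 CPM of footprints in sgDDX3 cells at day 14, against 492 and 563 CPM in sgGal4 cells, and 746 and 647 CPM of RNA in sgDDX3 cells, against 525 and 501 CPM in sgGal4 cells. Its log2 difference was 1.01 ± 0.22 in footprints (adjusted p = 0.0225, edgeR) and 0.44 ± 0.09 in RNA (adjusted p = 0.00131), the footprint call being lost when sgDDX3 replicate 1 (0.89) or either of the sgGal4 replicates (0.93 and 1.10) was left out. DDX24, a helicase of 60S assembly, had 105 and 101 CPM of footprints in sgDDX3 cells, against 55.3 and 62.7 CPM in sgGal4 cells (0.80 ± 0.15, adjusted p = 0.0124, edgeR), a call lost without sgDDX3 replicate 1 (0.76) or sgGal4 replicate 1 (0.72). TSR3, which modifies the small subunit RNA, was the 1 gene called in footprints relative to RNA at day 3 (-1.07 ± 0.18, adjusted p = 0.000339, edgeR).

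Of 79 ribosomal protein genes, the products that these factors assemble, 2 rose and 0 fell in RNA at day 3 (median 0.04), where 7.68% of all genes were higher and 6.39% lower, and 0 rose and 22 fell at day 14 (median -0.16), where 8.44% of all genes were higher and 6.18% lower. The number that fell at day 14 was 14 without sgDDX3 replicate 1, 46 without its replicate 2, 9 without sgGal4 replicate 1 and 3 without its replicate 2, with medians from -0.21 to -0.09. At day 3 none passed without sgDDX3 replicate 1 or sgGal4 replicate 1. In footprints 0 rose and 1 fell at day 3, where 3.81% of all genes passed, and 0 rose and 4 fell at day 14 (median -0.09), where 2.11% of all genes were higher and 1.29% lower. The day 14 footprint calls were lost without sgDDX3 replicate 1, its replicate 2 or sgGal4 replicate 1, where fewer of all genes passed as well. MYC had 288 and 278 CPM of RNA in sgDDX3 cells at day 14, against 457 and 414 CPM in sgGal4 cells. Its log2 difference in RNA was -0.37 ± 0.07 at day 3 (adjusted p = 0.00132, edgeR) and -0.62 ± 0.07 at day 14 (adjusted p = 6.39e-06). In MYC footprints it was -0.49 ± 0.10 at day 3 (adjusted p = 0.0238, edgeR) and -0.56 ± 0.10 at day 14 (adjusted p = 0.0113). Both footprint calls were lost in some alternative runs. Among the 15 ribosome biogenesis genes with an E-box in a window, UTP20 and NOP2 rose and NOP10 and FBL fell in RNA at day 14. The others of the 15 did not pass there. The part of MYC in any of these differences was not tested.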

How the data were processed

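The deposited tables, 1 for RNA and 1 for footprints, hold raw whole-number counts of reads for each gene. The submitters' processing notes name STAR 2.7.5a, Bowtie2 2.4.1, DESeq2, cutadapt 3.4 and the build GRCh38. Strand setting, annotation and counting tool: not given in the sources used here. Hence values of overlapping genes, antisense genes and genes with near-identical copies are uncertain. Of 58037 genes, 45 duplicate entries of pseudoautosomal genes were left out. Within each assay, scaling used TMM, genes were kept by filterByExpr (minimum count 10), and the quasi-likelihood test was that of edgeR 4.0.16 (R 4.3.3, limma 3.58.1) over all 12 libraries of an assay. Translational efficiency was the interaction of assay with guide in a model of all 24 libraries. P-values were Benjamini-Hochberg adjusted over all genes, with 0.05 as threshold, and SE are of the log2 difference. The biological coefficient of variation shared by all genes came to 6.13% in RNA, 9.99% in footprints and 7.08% in both. DESeq2 1.42.0, other size factors, no filter, a newer edgeR fit, a replicate block, the compared groups alone and leaving out each library were tried. The upper limit given for a count of 0 covers counting error only, whereas the SE also hold the spread between libraries as estimated by edgeR. The genes named were DDX3X, those passing between the guides, the highest and lowest of each guide comparison at days 3 and 14, MYC, NCL and up to 4 other pathway genes with the smallest adjusted p per comparison. The genes, lists and rule were chosen with earlier results of these data known. Other genes named for their values were chosen after these were seen. Coordinates and promoter sequences are from RefSeq, GRCh38.p14.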

Additional observations from a re-analysis of the deposited data

How the results depend on the processing

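Of the calls of the 42 genes between guides, those of UBTF at both days, NOB1 and NPM1 in RNA passed in every alternative, and each of the others was lost in at least 1. Numbers of the 42 genes called were within 1.5 times of those reported except as follows. With no filter on low counts they were 4 in RNA of sgGal4 cells at day 3 over day 0, 3 in footprints of both sgGal4 comparisons, 5 in footprints between guides at day 14, and 1 in each of 3 comparisons: footprints between day 14 and day 3, and the ratio at day 3 and at day 14. The median in footprints at day 0 was then -0.075. Of all genes, 3.27% then passed in that RNA comparison and 2.11% and 2.74% in footprints of sgGal4 cells at days 3 and 14. In footprints between guides at day 14 it was 2.68%, and in those 3 comparisons 1.03%, 2.48% and 0.898%. With the compared groups alone they were 12 and 13 in RNA of sgGal4 cells at days 3 and 14, and 3 and 0 in footprints. The share of all genes that then passed also moved, to 14.99% and 27.91% in RNA, against 5.68% and 16.2% reported. In footprints it was 6.283% and 1.763%, against 1.26% and 2.47% reported. DESeq2 gave 2 in footprints of sgGal4 cells at day 3 (1.46% of all genes) and 1 in the ratio at day 3 (5.04%). Its size factors in edgeR gave 1 in that ratio (5.19%). The newer edgeR fit gave 0 in footprints of sgGal4 cells at day 14 (2.54%). The cause of these changes was not tested.

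Leaving out 1 library gave 1 to 4 genes called between guides in RNA at day 3, 4 to 10 at day 14 and 0 to 3 for the change between days, 0 to 3 in footprints at day 14 and 0 to 1 for the change between days, and 0 to 2 in the ratio at day 3 and 0 to 1 at day 14. In sgGal4 cells it gave 0 to 1 in RNA at day 3, 2 to 3 at day 14 and 0 to 1 in footprints at day 14. Medians lay between -0.11 and 0.092 in RNA at day 14 and between -0.062 and 0.20 for the change between days. In footprints they lay between -0.054 and 0.0031 at day 0, between -0.11 and 0.12 at day 3, and between -0.035 and 0.18 for the change between days. In the ratio they lay between -0.0055 and 0.067 at day 0, -0.044 and 0.23 at day 3, -0.0225 and 0.22 at day 14, and -0.10 and 0.15 for the change between days. In sgGal4 cells at day 3 they lay between -0.16 and -0.086 in RNA, -0.16 and -0.11 in footprints and -0.042 and 0.016 in the ratio. Signs of single genes were followed only for genes with a call, for the highest and lowest values and for some other named values. Among these, signs turned in 4 values, none of which had passed: FBL in the ratio at day 14 (-0.17 to 0.17), NOC2L at day 3 in the ratio (-0.20 to 0.35) and in footprints (-0.50 to 0.046), and NPM1 in footprints at day 14 (-0.18 to 0.11). Signs of further genes also turned, as the counts above 0 by role show.

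Within an assay the replicate numbers did not pair the libraries: deviations from group means of same-numbered libraries correlated between -0.48 and 0.36 in RNA and between -0.46 and 0.44 in footprints over 15 pairs of groups each. Pairing of an RNA library with the footprint library of the same number was not tested, and the model of both assays did not use it. In sgDDX3 cells the shift between replicates ran the same way in both assays at day 3 and at day 14. With a replicate block, 2 genes passed between guides in RNA at day 3 (NOC2L had -0.30, adjusted p = 0.0528 in edgeR, over a range of 0.00465 to 0.465 in all its alternatives), and NIP7 was lost in sgGal4 cells at day 14 (-0.28). Counts over all genes also moved. At day 14 they were 1495 in RNA and 241 in footprints with the compared groups alone, against 2674 and 672 reported. At day 3 they were 152 in footprints with the groups alone and 1594 with no filter, against 753 reported, and 1221 with no filter in footprints at day 14. In the ratio at day 14 the groups alone gave 99, against 260 reported. With 2 libraries a group and standard errors of the 42 genes of 0.09 to 0.21 (log2) in footprints at day 14, small differences in footprints were not detectable at this depth and number.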
